A study of Homo sapiens with 12 samples.

Results

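CYP24A1 and the genes that make, break down and sense vitamin D were examined in RNA-seq of stable A549 lines. A549 is a human lung adenocarcinoma (LUAD) cell line. The 6 genes were CYP24A1, CYP27B1, CYP2R1, CYP27A1, VDR and DHCR7, taken by symbol from a table of 60623 genes. They were chosen by symbol with their levels and fold changes in these counts in view, so both are given as a description with no p-value, and counts of members called are printed beside those of all genes with nothing read from them. The lines carried the empty lentiviral vector pLV-EF1a-IRES-Hygro (V) or the same vector with wild-type HA-AHR (WT), HA-AHR S489A (SA) or HA-AHR S489D (SD), and were selected with hygromycin. AHR, the aryl hydrocarbon receptor, is a ligand-activated transcription factor. At S489 the SA construct has an alanine, which cannot be phosphorylated, and the SD construct an aspartate, a common stand-in for a phosphorylated serine. The cells were grown in serum-supplemented medium, and the labels name no added ligand or vitamin D compound. Each construct was introduced on top of the endogenous AHR gene and is represented by 1 line with 3 biological replicates, so that construct and line cannot be told apart. The labels do not say whether replicates were separate cultures. The p-values weigh a difference against the spread between libraries within the lines compared, and that spread may be technical.

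Vitamin D is made from the last intermediate of cholesterol synthesis, which DHCR7 otherwise turns into cholesterol. CYP2R1 and, less specifically, CYP27A1 add the first hydroxyl group, and CYP27B1 adds the next one to give the active hormone calcitriol. Calcitriol binds VDR, a nuclear receptor that works as a pair with a retinoid X receptor, and CYP24A1 breaks calcitriol down. CYP24A1 is also the best-known target gene of VDR, which closes a feedback loop, and it is raised in many lung adenocarcinomas.

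The libraries held 7844045 to 11765576 expected counts each. A gene with no count could have been present at up to 0.255 to 0.382 CPM (counts per 1000000 of a library's total), the level of 3 counts in these libraries. AHR averaged 69.1 ± 4.51 CPM in V (mean ± standard deviation, n = 3), and 266 ± 28.3, 223 ± 5.89 and 210 ± 9.14 CPM in WT, SA and SD. ENSG00000283321, a gene that overlaps AHR, had 0 counts in the V libraries, and its sum with AHR averaged 69.1 CPM in V and 469, 393 and 296 CPM in the WT, SA and SD lines. The 3 AHR lines were therefore not matched in AHR mRNA. Of 8 A549 and epithelial markers, KRT8 and KRT18 were abundant, and EPCAM averaged 0.724 to 1.46 CPM by line. Of the lung lineage markers, NKX2-1, SFTPB and SFTPC were at 0 to 3 counts in each library, while ABCA3 averaged 71.2 to 73.8 CPM by line. Of 6 markers of other cell types, COL1A2 and CD3E were at 0, PTPRC, PECAM1 and LYZ had at most 3 counts in a library, and the summed level of the list was 5.34 to 13.1 CPM, nearly all of it COL1A1.

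CYP24A1 was one of the most abundant mRNAs of these cells and was lower in each AHR line than in V. CYP24A1 (ENSG00000019186) lies on the minus strand of chromosome 20, at 54153446 to 54173986 of GRCh38, and its annotated exons cover 3988 bases. Its level was 1186, 1117 and 1186 CPM in the V libraries. The WT libraries had 749, 799 and 762 CPM. In SA the libraries had 856, 794 and 762 CPM, and in SD 780.4, 743 and 697 CPM. All 9 libraries of the AHR lines were below the lowest V library, and the libraries of WT, SA and SD overlapped one another.

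The mean of CYP24A1 was 1163 ± 39.8 CPM in V (n = 3), and the means of WT, SA and SD were 770.1 ± 25.4, 804 ± 47.9 and 740.3 ± 41.6 CPM. These are 0.662, 0.692 and 0.637 times the V mean in WT, SA and SD. The log2 fold change against V was -0.60 with a standard error (SE) of 0.04 in WT, -0.53 (SE 0.05) in SA and -0.65 (SE 0.05) in SD. A lower value than that of CYP24A1 was found for 3.25% of the genes tested in WT against V, 3.91% in SA against V and 2.47% in SD against V. The 3 comparisons share the V libraries, so that they are not independent of one another. By CPM the gene ranked between 56 and 67 of all genes in the V libraries and between 106 and 136 in the libraries of the AHR lines. The count behind each value was 5899 to 11532, so that replicate spread and not counting error limited the precision.

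**Figure D1:**
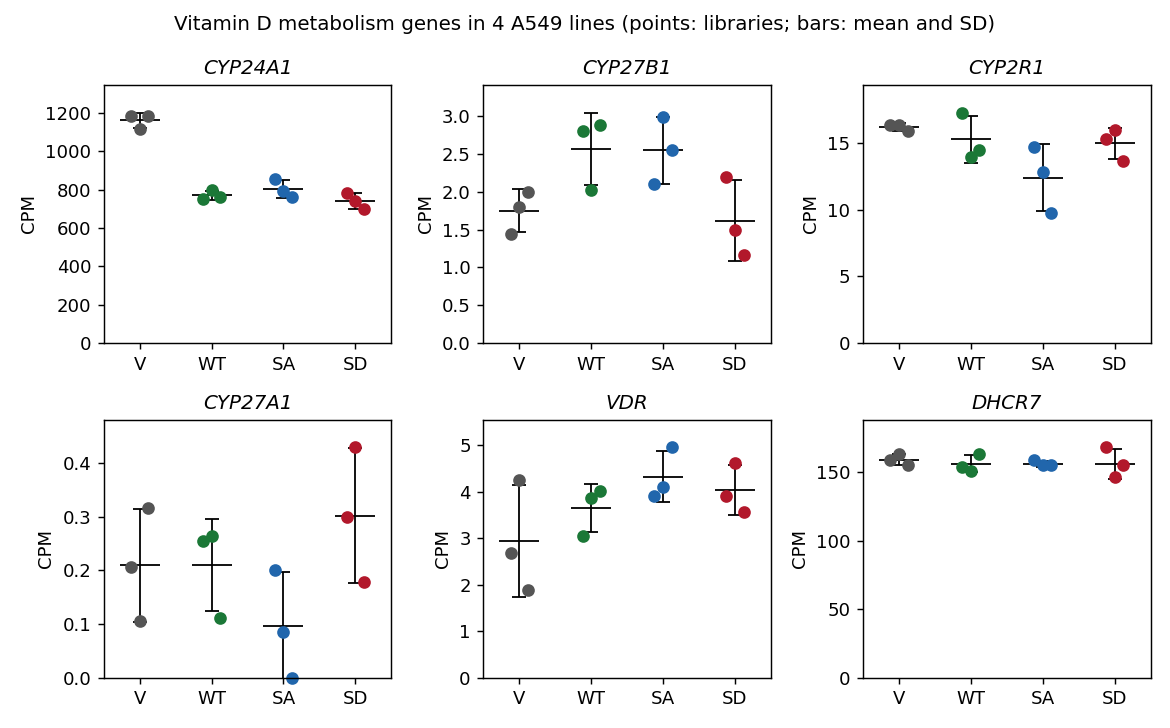
Level of each vitamin D metabolism gene in CPM (vertical axis from 0, its own scale for each gene) in the lines V, WT, SA and SD; points are libraries, and the horizontal and vertical bars are the mean and SD of 3 libraries. CYP24A1 lay between 1117 and 1186 CPM in V and between 697 and 856 in the AHR lines, while the points of DHCR7 and VDR overlapped between the lines.

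Among the AHR lines the level of CYP24A1 differed little. SD against WT gave a log2 fold change of -0.06 (SE 0.05), SD against SA -0.12 (SE 0.06) and WT against SA -0.06 (SE 0.05). Of the 4 means, SD was the lowest and SA the highest of the AHR lines, and neighbours in the order SD, WT, SA did not differ beyond the spread of their libraries. The step from SA to V was larger than that spread. By its mean, AHR mRNA was highest in WT and lowest in SD, and the SD and SA libraries overlapped for AHR. The order of CYP24A1 among these lines was not resolved, so it was not set against that of AHR. The part of AHR mRNA in the level of CYP24A1 was not tested.

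The keratins and CDH1, E-cadherin, were also lower in the AHR lines than in V. KRT18, a keratin of simple epithelia, averaged 2733 ± 73.5 CPM in V against 2123 ± 20.1 in WT, 2078 ± 47.4 in SA and 1962 ± 49.1 in SD. Its fall against V was called in each AHR line by edgeR's quasi-likelihood test with Benjamini-Hochberg adjustment over all genes tested (log2 fold change -0.37, -0.40 and -0.48, adjusted p = 3.25e-08, 3.72e-07 and 4.16e-07). KRT8 and CDH1 were called lower in the same 3 comparisons, so that 3 of the 5 epithelial markers tested were called in each. Of all genes, 2.93%, 3.29% and 2.49% were called lower in WT, SA and SD against V. EPCAM and ABCA3, the other markers tested, were not called, and ABCA3 was at -0.05, -0.03 and -0.01. CDH1 averaged 169.8 ± 9.52 CPM in V, and the AHR lines WT, SA and SD averaged 112 ± 4.24, 112 ± 8.49 and 126 ± 8.26. Among the AHR lines CDH1 was called in no comparison. The summed level of the 8 epithelial markers was 6124 to 6374 CPM in V, 4900.5 to 4930.4 in WT, 4741 to 4889 in SA and 4477 to 4701 in SD. COL1A1 averaged 11.4 CPM in V and 6.55, 7.51 and 8.02 in WT, SA and SD, and was called lower in WT (adjusted p = 0.00649) and SA (0.0278) and not in SD (0.0928). The part of these in the CYP24A1 difference was not tested. In bulk RNA, fewer cells that express a gene and less RNA of it per cell cannot be told apart.

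The activating enzyme CYP27B1 was scarce. CYP27B1 (ENSG00000111012) lies on the minus strand of chromosome 12, at 57762334 to 57768986, and 107 of its 3284 exon bases (3.26%) are shared with METTL1 on the same strand, so that a few reads could belong to either gene. The V libraries had 1.44, 1.80 and 2.00 CPM and the WT libraries 2.80, 2.02 and 2.89. In SA the values were 2.10, 2.99 and 2.56 CPM, and in SD 2.20, 1.5 and 1.16. Each WT and SA library was above each V library and the SD libraries overlapped those of V. Each of these values rests on 13 to 35 counts.

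By line CYP27B1 averaged 1.75 ± 0.284 CPM in V and 1.62 ± 0.532 in SD, below WT at 2.57 ± 0.48 and SA at 2.55 ± 0.442 (n = 3). The log2 fold change was 0.54 (SE 0.36) in WT against V, 0.55 (SE 0.35) in SA against V and -0.11 (SE 0.39) in SD against V, where it ranged from -0.40 to 0.09 as single libraries were left out. SD lay below both other AHR lines, with -0.65 (SE 0.37) against WT and -0.66 (SE 0.36) against SA, although the libraries overlapped in both comparisons. The summed counts gave 1.74 CPM in V with an exact Poisson 95% interval of 1.3 to 2.3, and 2.52 in WT with an interval of 1.97 to 3.18. The interval was 2.06 to 3.18 CPM in SA and 1.18 to 2.12 in SD. Such intervals cover counting error and no other. Neighbours in the order of the summed levels, SD, V, WT and SA, had overlapping intervals.

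CYP24A1 was far above CYP27B1 in each library when both were divided by exon length. The log2 ratio of CYP24A1 to CYP27B1 in CPM per kilobase was 9.41, 8.99 and 8.93 in V and 7.79, 8.35 and 7.76 in WT. It was 8.39, 7.77 and 7.94 in SA and 8.19, 8.67 and 8.95 in SD. The means were 9.11 ± 0.26, 7.97 ± 0.33, 8.03 ± 0.32 and 8.6 ± 0.38 in V, WT, SA and SD, ratios of 553, 250.2, 262 and 389. The V libraries lay above all WT and SA libraries and overlapped SD by 1 library, at 8.95 against the lowest V value of 8.93. In WT and SA the lower CYP24A1 and the higher mean of CYP27B1, which was not called, both entered the ratio. The spread of the ratio came mainly from the few counts of CYP27B1.

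The first hydroxylation step was represented by CYP2R1, with hardly any CYP27A1. CYP2R1 (ENSG00000186104) lies on the minus strand of chromosome 11, at 14877440 to 14892252, with 4495 exon bases. Its level was 16.4, 16.4 and 15.9 CPM in V, 17.3, 14.0 and 14.5 in WT, 14.7, 12.8 and 9.72 in SA and 15.3, 16.0 and 13.7 in SD. The 3 SA libraries lay below all V libraries, with SA replicate 3 the lowest of the 12, and the WT and SD libraries overlapped V.

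SA against V gave a log2 fold change of -0.39 (SE 0.14) for CYP2R1. The value was -0.24 without SA replicate 3 and -0.52 without SA replicate 1. WT and SD were at -0.10 (SE 0.13) and -0.11 (SE 0.13) against V. CYP27A1 (ENSG00000135929), on the plus strand of chromosome 2 at 218781749 to 218815293, had 2, 1 and 3 counts in V, 2, 3 and 1 in WT, 2, 1 and 0 in SA and 3, 4 and 2 in SD. It did not pass the filter on low counts and was tested in no comparison. Its summed level was 0.209 CPM in V (exact Poisson 95% interval 0.0768 to 0.456), and the intervals of the other lines, from 0.0187 at the lowest to 0.558 at the highest, all overlapped it. A difference in CYP27A1 was not detectable at this depth.

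The receptor VDR was present at a few CPM. VDR (ENSG00000111424) lies on the minus strand of chromosome 12, at 47841537 to 47943048, with 5674 exon bases, of which 19 are also covered by the opposite-strand long noncoding RNA ENSG00000205537. The V libraries had 2.67, 4.24 and 1.89 CPM, the widest spread of the 4 lines. WT had 3.05, 3.86 and 4.01 CPM, SA 3.91, 4.10 and 4.95, and SD 3.90, 4.61 and 3.56. V replicate 2 lay inside the range of each AHR line or above it, so that no comparison separated the libraries.

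VDR averaged 2.94 ± 1.2 CPM in V (n = 3), and the AHR lines WT, SA and SD averaged 3.64 ± 0.516, 4.32 ± 0.553 and 4.03 ± 0.534. Its log2 fold change against V was 0.32 (SE 0.31) in WT, 0.56 (SE 0.29) in SA and 0.45 (SE 0.30) in SD. The SA value was 0.92 without V replicate 2 and 0.32 without V replicate 3. The VDR means of the AHR lines were not below that of V, on 18 to 56 counts a library. The part of VDR in the CYP24A1 difference was not tested.

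DHCR7, at the branch between cholesterol and vitamin D, was level across the lines. DHCR7 (ENSG00000172893) lies on the minus strand of chromosome 11, at 71428193 to 71452868, with 6878 exon bases. Its level was 159, 163 and 155 CPM in V and 154, 151 and 163 in WT. The SA libraries had 159, 155 and 155 CPM and the SD libraries 168, 146 and 155, with all lines overlapping. The log2 fold change against V was -0.03 (SE 0.05) in WT, -0.03 (SE 0.05) in SA and -0.02 (SE 0.06) in SD, the smallest of the members.

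**Figure D2:**
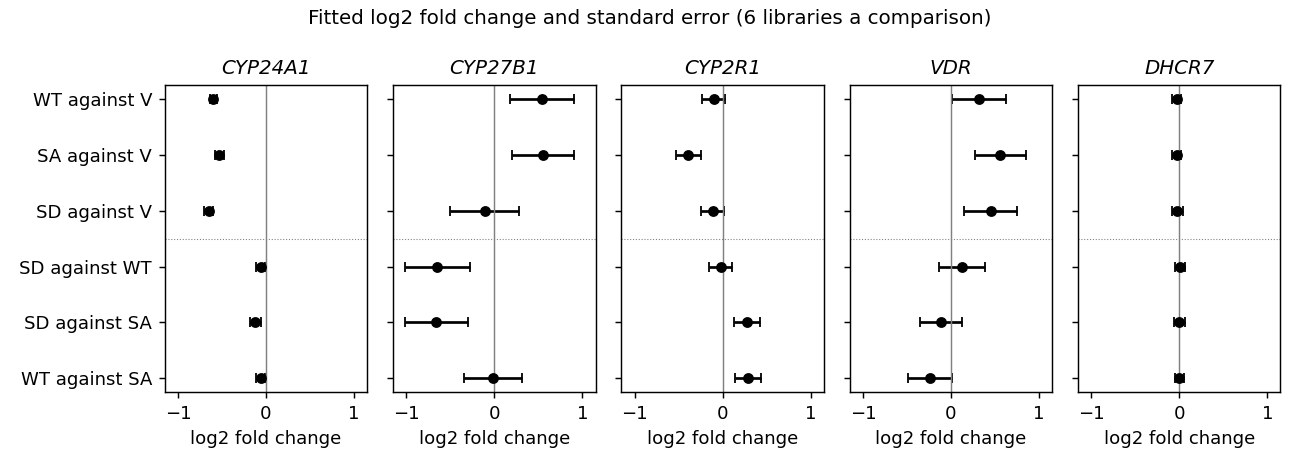
Fitted log2 fold change (horizontal axis, the same scale for each gene) with its standard error for the 5 members tested, in the 6 comparisons of lines (vertical axis; the dotted line divides comparisons with V from those among AHR lines). CYP24A1 lay at -0.60, -0.53 and -0.65 against V with short error bars and near 0 among the AHR lines, and the bars of CYP27B1 and VDR were several times longer.

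Of the 6 members, 5 were tested in each comparison. In WT against V, 1 of them was called at an adjusted p under 0.05 (edgeR's quasi-likelihood test with Benjamini-Hochberg adjustment), CYP24A1, where 5.24% of all genes tested were called and 2.93% were called lower. In SA against V and in SD against V it was again CYP24A1 alone, where 7.17% and 5.41% of genes were called and 3.29% and 2.49% called lower. Without SA replicate 1, where 1195 of all genes were called in SA against V, CYP2R1 was called as well. The members were proposed from these counts and nothing is read from the numbers called. No member was called in SD against WT, SD against SA or WT against SA, by edgeR or by DESeq2, and none had an unadjusted p under 0.05 there. Of all genes, 0.708%, 0.22% and 0.0803% were called in these comparisons. The libraries did not overlap for 2 members in WT against V (CYP24A1 and CYP27B1), 3 in SA against V (also CYP2R1) and 1 in SD against V, where 21.9%, 23.8% and 21.4% of genes did not overlap, and for 0 members among the AHR lines, where 16.0%, 13.7% and 12.8% did not in SD against WT, SD against SA and WT against SA.

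Per kilobase of exon the members differed over several orders of magnitude, and their order was nearly the same in each line. CYP24A1 averaged 292 CPM per kilobase in V and 193, 202 and 186 in WT, SA and SD. DHCR7 followed, with libraries between 21.3 and 24.4, and then CYP2R1, between 2.16 and 3.84. VDR lay between 0.334 and 0.872 CPM per kilobase and CYP27B1 between 0.353 and 0.91, so that these neighbours did not differ beyond their spread. CYP27A1 was the lowest in each library, at 0 to 0.144.

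**Figure D3:**
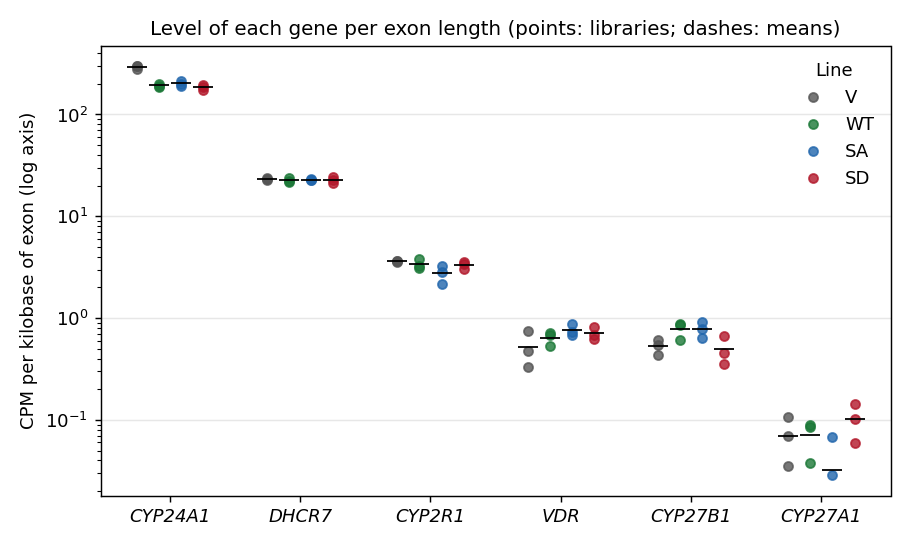
CPM per kilobase of exon (log axis) of the 6 members, in descending order, in V, WT, SA and SD; points are libraries and dashes are means of 3, and the SA library with 0 counts of CYP27A1 cannot be drawn on this axis. CYP24A1 lay between 175 and 297 and DHCR7 between 21.3 and 24.4, while VDR and CYP27B1 covered the same range.

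Genes that work with the members or answer to VDR were then compared, in 4 lists of 47 genes from textbook knowledge that hold no member. Of these, 30 were tested in WT against V, and 6 were called lower and 0 higher (20%, against 2.93% lower and 2.31% higher of all genes). In SA against V 6 of 30 were called (20%), 2 higher and 4 lower, and in SD against V 5 of 29 (17.2%), 2 higher and 3 lower. Of all genes, 3.88% and 2.92% were called higher and 3.29% and 2.49% lower in these comparisons. The median log2 fold change of the tested genes was -0.05, -0.02 and -0.04 in WT, SA and SD against V, where that of all genes was 0.002, -0.002 and 0.003. The lists were written with earlier results of these data known and their genes are no independent evidence of a direction. Adjusted p-values below are from the same edgeR test, over all genes, and ranges over the alternatives also take in DESeq2.

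Of 12 receptor partners and coregulators, 11 were tested, and RXRG, the retinoid X receptor of muscle and brain, was at 0 in all libraries. NCOA3, a coactivator of nuclear receptors, had 273, 260.4 and 279.7 CPM in V, 229, 238 and 230.3 in WT, 223, 223 and 228 in SA and 216, 207 and 208 in SD, with all V libraries above all others. NCOA3 fell in each AHR line, by 0.22 (adjusted p = 0.00264), 0.27 (0.000578) and 0.36 (5.85e-05) on the log2 scale in WT, SA and SD. RXRA, the main partner of VDR, had 107, 113 and 107 CPM in V and 131, 132 and 129 in SA. It rose in SA against V by 0.26 (SE 0.06, adjusted p = 0.00314), and WT and SD, at 123 ± 9.49 and 120.2 ± 7.84 CPM, were not called. RXRB was called higher in SA against V (log2 fold change 0.28, SE 0.08, adjusted p = 0.041), a call that was lost without SA replicate 1, 2 or 3, without V replicate 1 or 2 and with DESeq2 (adjusted p up to 0.168).

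Of 10 electron donors, carriers and side enzymes, 6 were tested in most comparisons and 5 in SD against V. GC, the plasma carrier of vitamin D, was at 0 in all libraries, and LRP2, which takes up that carrier, was at 0 to 5 counts. POR, which hands electrons to CYP2R1 and other microsomal P450 enzymes, was the highest of the list per kilobase. It had 340.2, 327 and 338 CPM in V, 321, 314 and 313 in WT, 378, 343 and 337 in SA and 422, 371 and 366 in SD, so that the SD libraries lay above those of V and WT. POR was called higher in SD against V (log2 fold change 0.21, SE 0.06, adjusted p = 0.033) and in SD against WT (0.29, SE 0.06, adjusted p = 0.0142). The first call was lost on leaving out SD replicate 1 or 2 or V replicate 1, 2 or 3 (adjusted p up to 0.146), and the second on leaving out WT replicate 1, 2 or 3 (up to 0.088).

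FDXR passes electrons by way of ferredoxin to the mitochondrial P450 enzymes, CYP24A1 and CYP27B1 among them. It averaged 81.4 ± 5.53 CPM in V and 69.9 ± 1.81, 71.1 ± 5.41 and 68.8 ± 3.39 in WT, SA and SD. The call of its fall in SD against V (-0.24, SE 0.07, adjusted p = 0.0429) was lost under 7 of 11 alternatives. These were DESeq2, the replicate block, and leaving out SD replicate 1 or 2 or V replicate 1, 2 or 3. Over all 11 alternatives the adjusted p was 0.0329 to 0.226. PDIA3, a protein disulfide isomerase that has been described as a membrane binding protein of calcitriol, had 499, 469 and 473 CPM in V, 397, 405 and 397 in WT and 426, 416 and 398 in SA. It fell by 0.27 (SE 0.04, adjusted p = 8.7e-05) in WT and by 0.22 (SE 0.05, adjusted p = 0.00352) in SA, and the SA call was lost without V replicate 1 (0.056). SD, at 457 ± 42.3 CPM, overlapped V.

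Of 19 vitamin D target genes, 11 were tested in each comparison. TRPV5, S100G, CAMP, TNFSF11 and FBP1, among them a calcium channel and a calcium-binding protein of kidney and gut and the antimicrobial peptide of myeloid cells, were at 0 in all libraries. CEBPB, a transcription factor, was the highest per kilobase, at 140.3 ± 10.1 CPM per kilobase in V, below CYP24A1 at 292. No gene of the 4 lists exceeded CYP24A1 by its mean per kilobase in V. In WT against V 3 of the 11 were called, all lower (CDKN1A, IGFBP3 and SPP1), which is 27.3% where 5.24% of all genes were called. In SA against V 1 was called, lower (ATP2B1), and in SD against V 1, higher (CD14). That is 9.09% in each, near the 7.17% and 5.41% of all genes called in SA and SD against V.

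CDKN1A, the cell cycle inhibitor p21, had 143, 152 and 147 CPM in V and 108, 114 and 126 in WT. It fell by 0.34 (SE 0.06, adjusted p = 0.000217) in WT, and was at -0.16 in SA (adjusted p = 0.0886) and -0.11 in SD (0.347). IGFBP3, which binds insulin-like growth factors, averaged 388 ± 31.1 CPM in V and 336 ± 9.66 in WT and was called lower there (-0.21, adjusted p = 0.00946), a call lost without V replicate 1 (0.129). ATP2B1, a calcium pump, was called lower in SA against V (-0.20, adjusted p = 0.0169) and lost without SA replicate 2 or 3 or V replicate 1 or 3 (up to 0.145). CD14, the coreceptor for lipopolysaccharide, had 13.0, 12.5 and 11.4 CPM in V and 16.6, 16.5 and 22.4 in SD, and rose by 0.60 (SE 0.14, adjusted p = 0.00947). That call was lost without SD replicate 3 (log2 fold change 0.43, adjusted p = 0.112) or V replicate 3 (0.061).

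SPP1, osteopontin, separated WT from SD. It had 123, 127 and 137 CPM in V, 99.4, 107 and 116 in WT, 125, 129.6 and 129.9 in SA and 151, 142 and 133 in SD. The WT libraries were the lowest and did not overlap any other line, and SD overlapped V. SPP1 fell in WT against V by 0.26 (SE 0.06, adjusted p = 0.00759) and was higher in SD than in WT by 0.40 (SE 0.07, adjusted p = 0.00203). The first call was lost without V replicate 3 or WT replicate 1 (up to 0.0654), and the second held under the 11 alternatives, with adjusted p of at most 0.0423.

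Of 6 mineral hormone genes, 2 were tested, and CASR, the calcium-sensing receptor, and FGF23, the phosphate hormone that represses calcitriol synthesis, were at 0 in all libraries. FGFR1, a receptor for FGF23 and other fibroblast growth factors, had 257, 254 and 258 CPM in V, 194, 190.3 and 183 in WT, 191, 177 and 178 in SA and 187, 178 and 175 in SD. All libraries of the AHR lines lay below all V libraries, as for CYP24A1. In WT, FGFR1 fell by 0.44 (SE 0.05, adjusted p = 1.15e-07), and in SA and SD by 0.50 (1.15e-07) and 0.51 (3.43e-07), the calls with the smallest adjusted p of the 4 lists. KL, the coreceptor that FGF23 needs, was at 0 to 3 counts in each library.

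**Figure D4:**
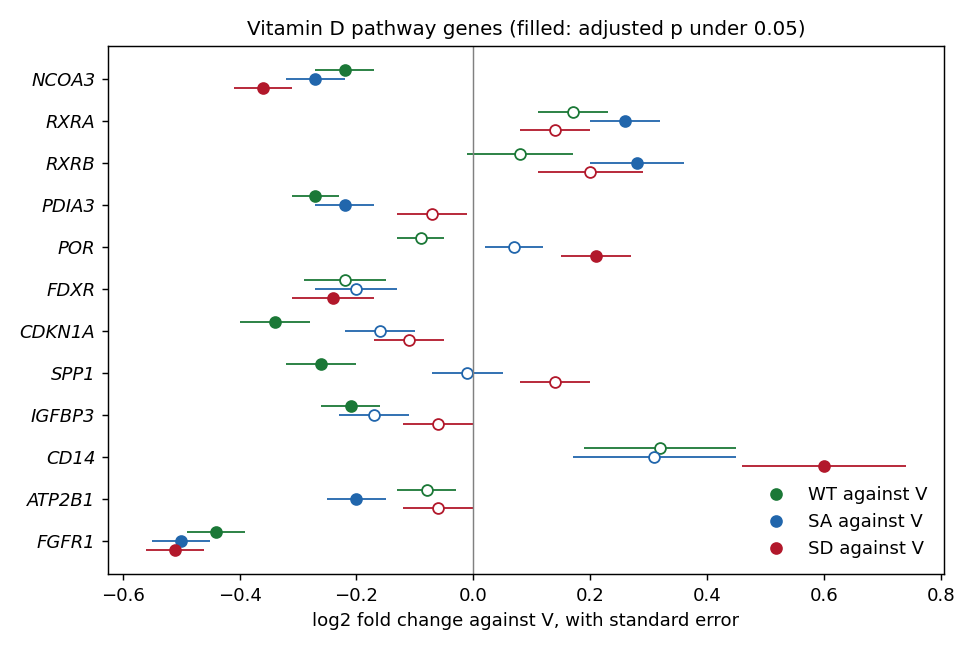
Log2 fold change against V (horizontal axis) with its standard error for the 12 listed pathway genes called in at least 1 of the 6 comparisons; colours are the lines WT, SA and SD, and filled points have an adjusted p under 0.05. NCOA3 and FGFR1 were lower in each AHR line, and RXRA, RXRB, POR and CD14 lay on the other side of 0 in the lines where they were called.

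Among the AHR lines, 2 of 30 listed genes were called in SD against WT (6.67%, against 0.708% of all genes), POR and SPP1, both higher in SD. None of 30 was called in SD against SA or in WT against SA by edgeR, where 5 and 10 had an unadjusted p under 0.05, and DESeq2 called 0 and 1 (SPP1).

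The other genes of late cholesterol synthesis, which act with DHCR7, were level like it. None of the 11 genes tested was called by edgeR or DESeq2 in any of the 6 comparisons. An unadjusted p under 0.05 was found for HSD17B7 and SC5D in WT against V (log2 fold change -0.32 and -0.29), for HSD17B7 in SA against V (-0.26), and for 0 genes in the other 4. The median log2 fold change of the list was between -0.04 and 0.02 over the 6 comparisons. EBP, a sterol isomerase, was the highest per kilobase, at 41.0 ± 1.73 CPM per kilobase in V and 43.4, 43.0 and 41.7 in WT, SA and SD.

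The genes whose log2 CPM most resembled that of CYP24A1 over the 12 libraries were TM4SF1 (Pearson's r = 0.976), AKAP12 (0.974), CPLX2 (0.973), FGFR1 (0.973) and LMO7 (0.966), among 15452 genes, of which 77 (0.498%) had an r over 0.9. The libraries share lines, and over the 9 libraries of the AHR lines alone r was 0.727, 0.69, 0.553, 0.527 and 0.683. TM4SF1 is a membrane protein of the tetraspanin-like family, AKAP12 a scaffold for protein kinase A, CPLX2 a regulator of vesicle fusion and LMO7 a protein of cell junctions. As a percentage of the V mean, the libraries of the AHR lines were at 60.0 to 73.6 for CYP24A1, 78.2 to 83.2 for TM4SF1, 77.7 to 85.0 for AKAP12, 36.8 to 48.4 for CPLX2, 68.4 to 75.5 for FGFR1 and 59.8 to 74.7 for LMO7. The choice depends on the measure and on single libraries: Spearman's correlation put none of the 5 among its first 5, and without SA replicate 1 only 1 remained, while 3 did without SD replicate 2.

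**Figure D5:**
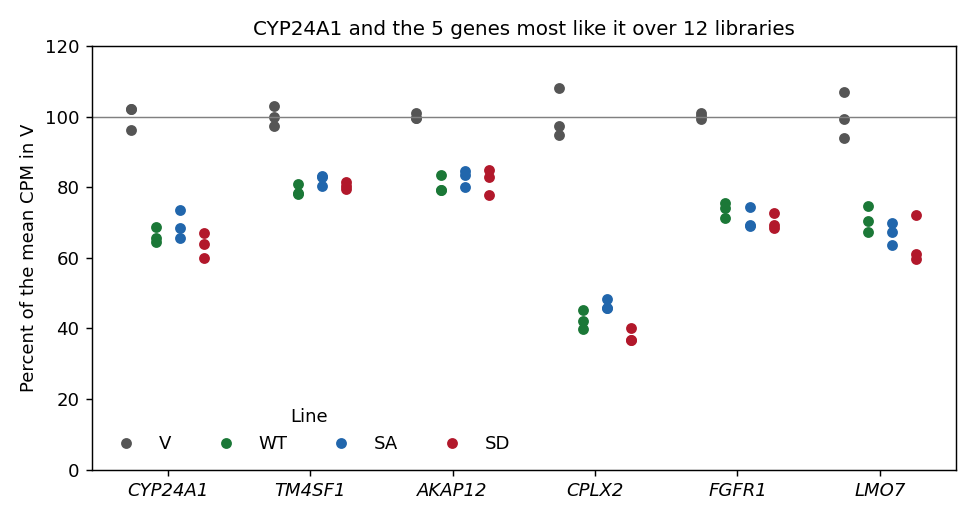
Level in each library as a percentage of the mean CPM in V (vertical axis from 0) for CYP24A1 and the 5 genes with the highest Pearson correlation with it over 12 libraries; points are libraries, coloured by line. The AHR-line libraries of CYP24A1 lay between 60.0 and 73.6%, and those of CPLX2 were the lowest, at 36.8 to 48.4%.

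Over the 9 libraries of the AHR lines, r of CYP24A1 was 0.46 with CYP27B1, 0.23 with DHCR7, 0.13 with VDR, 0.09 with AHR and -0.01 with CYP2R1. Over all 12 libraries, which take in the step between V and the AHR lines, r was -0.22, 0.26, -0.61, -0.94 and 0.40 with the same genes. With so few libraries from 4 lines, and few counts of CYP27B1 and VDR, these are descriptions and none is called a relation.

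The neighbourhood of CYP24A1 on chromosome 20 was examined to 500 kb on each side. PFDN4, a prefoldin subunit 34.1 kb away, was the one gene with a symbol there that passed the filter. It averaged 23.4 ± 2.48 CPM in V and 20.7, 18.8 and 20.6 in WT, SA and SD, with log2 fold changes of -0.18, -0.32 and -0.18 (adjusted p = 0.445, 0.0785 and 0.429). BCAS1, 82.9 kb away and singled out after its values were seen, had 16, 7 and 12 counts in V, 1, 6 and 4 in WT, 8, 4 and 5 in SA and 1, 0 and 5 in SD, too few to be tested. SUMO1P1, MIR4756, RNU7-14P and DOK5 were at 0 in all libraries.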

How the data were processed

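RNA-seq of poly(A)-selected RNA was analysed for 12 libraries of 4 A549 lines. Per the labels and the study's methods, the authors trimmed reads with Trimmomatic 0.39 and quantified genes with RSEM on GRCh38 transcripts, and the deposited values are RSEM expected counts per gene, neither normalized nor filtered, of which 3.24% to 3.61% per library were not whole. The release of the annotation and the strand setting are not given in the sources used here. Counts of the members were whole. A second deposited table holds only the authors' own comparisons (fold changes, p-values and q-values) and was not used.

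Rounded expected counts of the 6 libraries of each comparison were fitted with edgeR 4.0.16 (R 4.3.3): filterByExpr (minimum count 10, minimum total 15), TMM normalization, glmQLFit and glmQLFTest, two-sided, with Benjamini-Hochberg adjustment over all genes tested. A gene was called at an adjusted p under 0.05. CPM used TMM-scaled library sizes, and CPM per kilobase the union of exons in GENCODE release 44, which held 60295 of the 60623 genes. Correlations used log2 CPM with a prior count of 2. The alternatives were DESeq2 1.42.0, its size factors, every gene with at least 1 count, a replicate block, a fit of all 12 libraries, Spearman's correlation, and leaving out each library. The script was tested on simulated counts with 200 changed genes. No libraries of a line were copies of one another, since their counts differed by more than sampling noise.

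The members and lists were chosen with earlier results of these data known. Named were the 6 members, AHR and ENSG00000283321, the listed genes called in at least 1 of the 6 comparisons (at most 8 a list), those highest or at 0, the 5 genes most like CYP24A1, and genes with a symbol within 500 kb of it that passed the filter. An item that this rule names is not reported here.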

Additional observations from a re-analysis of the deposited data

Results flagged for a closer look

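Of the listed pathway genes, POR and SPP1 differed between the WT and SD lines in their change against V, by the test of SD against WT, in which the shared V libraries cancel (edgeR's quasi-likelihood test with Benjamini-Hochberg adjustment over all genes). POR was at -0.09 in WT and 0.21 in SD against V, a difference of 0.29 on the log2 scale (adjusted p = 0.0142). SPP1 was at -0.26 in WT and 0.14 in SD against V, a difference of 0.40 (adjusted p = 0.00203). Both were picked by this same test. Both were higher in 3 of 3 SD libraries than in all WT libraries, and 16.0% of all genes tested did not overlap there, in either direction. The POR call was lost without WT replicate 1, 2 or 3 (adjusted p up to 0.088), and the SPP1 call held under the 11 alternatives. AHR mRNA also differed between these lines, at 266 CPM in WT and 210 in SD, or 469 and 296 CPM when summed with ENSG00000283321. Its part in either difference was not tested.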

How the results depend on the processing

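The log2 fold change of CYP24A1 against V was -0.62 to -0.58 in WT, -0.58 to -0.49 in SA and -0.69 to -0.61 in SD over the 11 alternatives, a description, since the gene was chosen with these values in view. No called result changed sign. Between lines, libraries with the same replicate number had correlations of their deviations from the line means of -0.038 to 0.106. The labels do not say whether a number marks a shared batch, so that the replicate block is given as an alternative only. It moved the genes called from 774 to 507 in WT against V and from 105 to 245 in SD against WT. In SD against SA they moved from 33 to 165, and in WT against SA from 12 to 25. The listed pathway genes called in SD against WT moved from 2 to 4 (also CDKN1A and PDIA3). Testing every gene with at least 1 count gave 252, 153 and 103 genes in SD against WT, SD against SA and WT against SA, and 4, 1 (DUSP10) and 1 (SPP1) listed genes, for 2, 0 and 0. The fit of all 12 libraries gave 5 genes in WT against SA, and DESeq2 gave 1 listed gene there (SPP1). Spearman's correlation shared 0 of the 5 genes most like CYP24A1. The cause of these shifts was not tested.

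With single libraries left out, the genes called ranged from 434 (without V replicate 1) to 720 in WT against V, 621 (without V replicate 1) to 1195 in SA against V, 502 (without V replicate 3) to 856 in SD against V, 45 (without WT replicate 1) to 145 in SD against WT, 11 (without SA replicate 2) to 56 (without SD replicate 3) in SD against SA and 2 (without WT replicate 2) to 25 (without SA replicate 1) in WT against SA. The listed genes called ranged from 3 (without V replicate 1) to 7 in SA against V, 2 (without V replicate 3) to 4 in SD against V and 1 (without WT replicate 1, 2 or 3) to 3 in SD against WT, and 1 to 5 of the genes most like CYP24A1 remained. Calls on named listed genes were lost 31 times over the alternatives, a call being counted once for each alternative that lost it. CYP27B1, CYP27A1 and VDR rest on few counts, and depth limits what can be said of them.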
